A study of Canis lupus familiaris with 8 samples.

Results

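Stem-like cells sorted from the canine mammary tumour line CMT-Stylo (Stylo) were compared with the unsorted Stylo parent line for their microRNA content. The comparison takes 4 of the 8 samples of the study, 2 labelled Stylo CSC and 2 labelled Stylo parent, and all 454 canine miRNAs on the array. Stylo parent was grown in culture with no drug. Stylo CSC were sorted from Stylo by flow cytometry as CD44+, CD24-/low and ALDH+ cells, also with no drug. CD44 and CD24 are surface proteins and ALDH is an aldehyde dehydrogenase activity, a combination widely used to enrich breast cancer stem cells. The remaining 4 samples, used here as a contrast, are 2 Star parent and 2 Star CSC. CMT-Star (Star) is a subline of Stylo made resistant to 100 nM doxorubicin by stepwise exposure, and Star CSC were gated in the same way. All 8 samples derive from this single Stylo line, and all were grown in medium with 10% serum. Nothing in the labels says whether replicates came from separate cultures or sorts, and all p-values here reflect the spread among these samples alone, part of which may be technical.

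MicroRNAs are short RNAs that pair through a seed near their 5′ end with messenger RNAs and lower the messages' stability or translation. Families that share a seed, such as let-7, act on overlapping targets, and many miRNAs are cut from a common transcript with their genomic neighbours. In human and mouse breast models, let-7, miR-200 and miR-34 family members restrain stem-like cells, while miR-155 and miR-21 are described as oncogenic. The markers of the gate are proteins and were not measured on a miRNA array, so the identity of the sorted cells could not be checked with these data.

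Total RNA was labelled with Cy3 and hybridised to 1-colour arrays with 18160 spots for 998 probes. Between 4.19% and 8.78% of the spots were well above background, so most canine miRNAs gave no measurable level. In Stylo CSC the scanner arrays had 24 and 40 miRNAs well above background, and in Stylo parent 33. Stylo CSC replicate 1 was the only array on a slide of its own, called slide 2 here, and slide 1 held the others. Its scanner values correlated with those of the other arrays at r = 0.544 to 0.614 over 17 miRNAs measured everywhere, against 0.931 to 0.999 among the rest. Both scanner files of Stylo parent hold identical values and were counted as 1 array.

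The deposited table of processed values differs from the scanner files in the same samples. For 6 of its 8 columns all 475 entries followed the scanner totals. In the columns of Stylo CSC replicate 1 and Stylo parent replicate 2, none of the 55 and 58 entries detected in either source did. These columns resemble the rest of the table: Stylo CSC replicate 1 correlated with the other columns at 0.961 to 0.979 over 22 miRNAs. They also hold fewer detected miRNAs, 30 and 25, against 60 in Stylo CSC replicate 2 and 48 in Stylo parent replicate 1. Each Stylo group holds one of these columns. The labels do not say which source shows the labelled samples, so 3 value sets were used side by side. These are the scanner arrays (2 Stylo CSC and 1 Stylo parent), the slide 1 arrays alone (1 and 1, with the spread taken from the Star arrays), and the value table (2 and 2).

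The value table was the only set with replicates on both sides. In it 17 of 56 tested miRNAs differed between Stylo CSC and Stylo parent (limma, adjusted p below 0.05; percent called 30.4), and 20 had an unadjusted p below 0.05. Of these 17, 10 were higher in Stylo CSC (17.9% of the tested) and 7 were lower (12.5%), and the median over all 56 was 0 on the log2 scale. Higher were miR-23b, miR-27b and miR-23a, let-7a and let-7f, miR-34a, miR-378, miR-191, miR-210 and miR-99b. Lower were miR-155, miR-92a, miR-15b, miR-193a, let-7e, miR-125b and miR-494. An unadjusted p below 0.05 with a change of at least 2-fold, the rule that the series text gives for messenger RNAs, gave 5 of 56 in the table (percent called 8.93), 3 of 50 on slide 1 (percent called 6) and 4 of 46 on the scanner arrays (percent called 8.7). Among the 17, 5 had at least 1 Stylo column at the floor. The split depended on the scaling, with 9 higher and 4 lower without rescaling and 3 higher and 7 lower after quantile normalization. The 4 Stylo values did not overlap between the groups for any of the 17, and 22 of all 56 tested miRNAs (39.3%), these 17 included, did not overlap. Values below are log2 of a miRNA's total signal relative to its column's 75th percentile over the 22 miRNAs detected in every column, with a common floor of −4.91 for undetected miRNAs. Changes are differences of these values, Stylo CSC minus Stylo parent, given with limma's standard error.

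**Figure D1:**
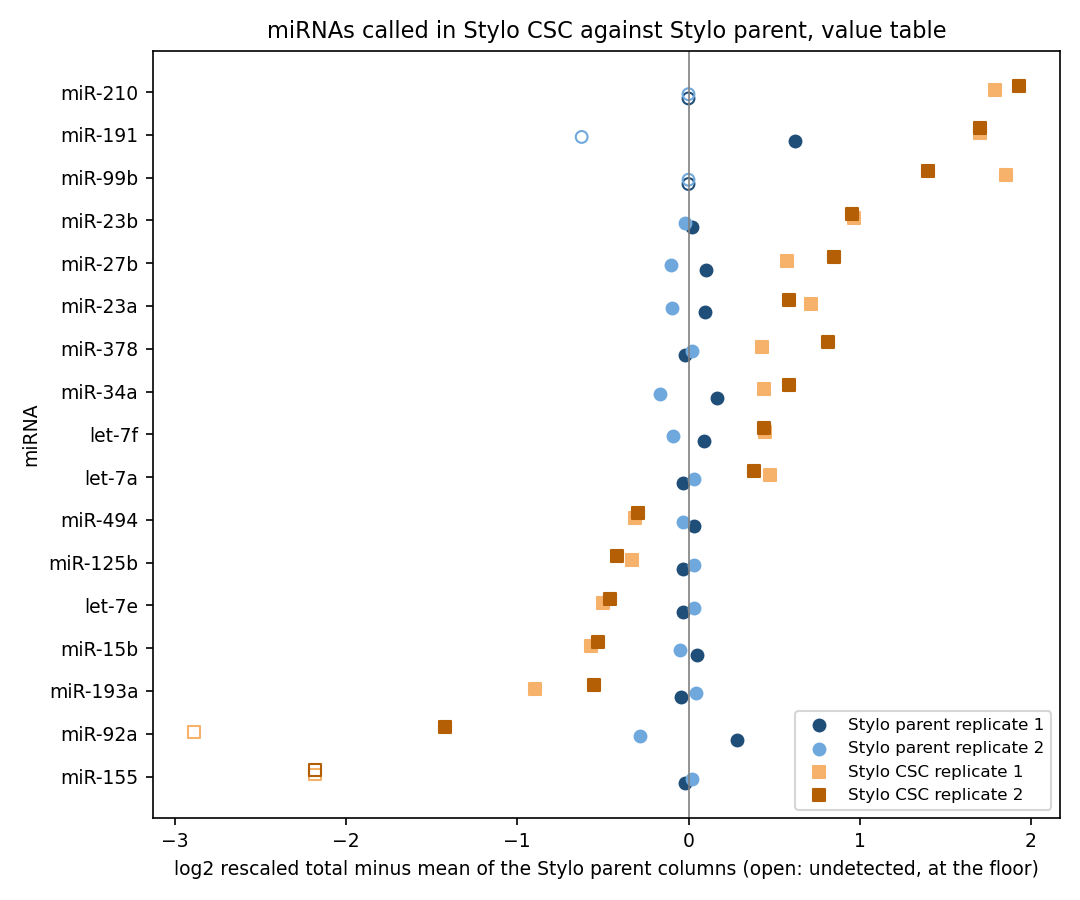
Each row is 1 of the 17 miRNAs called in the value table, and the horizontal axis is its log2 rescaled total minus the mean of both Stylo parent columns. Circles are Stylo parent and squares Stylo CSC, open where the miRNA was undetected and set to the floor of −4.91; squares lie to 1 side of the circles in every row.

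MiR-23b, miR-27b and miR-23a belong to the miR-23/27/24 clusters. These clusters are transcribed as units in mammals, and their miRNAs have been tied to angiogenesis, lipid metabolism and epithelial plasticity. Of 5 members on the array, 3 were tested in the value table, and all 3 rose, beside 17.9% over all tested, with a median change of 0.71 beside 0. MiR-23b stood at 0.08 and 0.04 in Stylo parent and at 1.03 and 1.02 in Stylo CSC. Replicates lay within a few hundredths of each other while the groups lay nearly 1 log2 unit apart. The rise was 0.96 ± 0.05 (1.95-fold, adjusted p = 0.000334). For miR-23b both parent values lie next to the scaling percentile. Their closeness, and part of this error and p of miR-23b, is therefore set by the scaling. Its neighbour miR-27b went from −2.21 and −2.41 to −1.74 and −1.46, a rise of 0.71 ± 0.12 (adjusted p = 0.0161). MiR-23a, of the paralogous cluster, went from −0.61 and −0.81 to 0.00 and −0.12, a rise of 0.65 ± 0.10 (adjusted p = 0.00955). Its value in Stylo CSC replicate 1 likewise lies next to the scaling percentile. In all 3, both parent columns lay below both sorted columns.

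On slide 1, which contrasts Stylo CSC replicate 2 with Stylo parent replicate 1, 17 of 50 miRNAs passed (percent called 34), 5 higher (10%) and 12 lower (24%), with 24 at an unadjusted p below 0.05. There miR-23b rose by 0.75 ± 0.05 (adjusted p = 0.0123), from 0.68 to 1.43. The values of miR-23a (0.30 ± 0.08, adjusted p = 0.0875) and miR-27b (0.24 ± 0.08, adjusted p = 0.129) were above 0 and did not pass. In the scanner arrays 1 of 46 miRNAs passed (percent called 2.17), none of them from these clusters. The slide 2 array put miR-23b at −1.24, below the Stylo parent array at 0.16, and Stylo CSC replicate 2 at 0.73, above it. With sorted arrays on either side of the parent, the scanner change of miR-23b was −0.42 ± 0.86 (adjusted p = 0.799). MiR-27b was at the floor of −3.61 on the slide 2 array and at −1.76 and −1.81 on the other sorted array and the parent. Without both table columns that differ from their scanner files, 1 column per Stylo group remains, of the same samples as on slide 1. The table then gave 0.65 for miR-23b, 0.46 for miR-27b and 0.20 for miR-23a. The spread in that refit comes from the Star columns alone, so no p is given for it here or below.

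The let-7 family, which represses HMGA2 and other growth genes and rises as cells differentiate, split by member. Of 10 names in the list 9 are on the array and 6 were tested in the value table, where 2 rose and 1 fell, beside 17.9% and 12.5% over all tested, and the median was 0.13. Let-7a stood at 2.10 and 2.17 in Stylo parent and at 2.61 and 2.52 in Stylo CSC, a rise of 0.43 ± 0.06 (adjusted p = 0.00955). Let-7f stood at −0.51 and −0.69 against −0.15 and −0.16, a rise of 0.45 ± 0.08 (adjusted p = 0.0174). Let-7e went the other way, from 1.12 and 1.19 to 0.65 and 0.70, a change of −0.48 ± 0.06 (adjusted p = 0.00551). Members of a single seed family therefore lay on both sides of the parent in the same columns. Let-7c (0.20 ± 0.06, adjusted p = 0.0784) and let-7b (−0.16 ± 0.06, adjusted p = 0.136) did not pass.

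The sixth member, let-7g, was detected in 1 column of each group and differed by 0.06 ± 0.65 (adjusted p = 1), against −0.22 ± 0.08 on slide 1 (adjusted p = 0.129). For the other members slide 1 gave the same signs as the table, and let-7e fell by 0.61 ± 0.06 (adjusted p = 0.0129) and let-7b by 0.41 ± 0.05 (adjusted p = 0.017). Let-7a (0.23 ± 0.06, adjusted p = 0.0806) and let-7f (0.16 ± 0.06, adjusted p = 0.132) did not pass there. The scanner arrays put let-7a at 2.19 in the parent and at 1.53 and 2.23 in Stylo CSC, so the sorted arrays lay on either side. The scanner value of let-7e was 1.20 in the parent against −1.35 and 0.41 in Stylo CSC, below the parent on both, a change of −1.68 ± 0.77 that did not pass (adjusted p = 0.296). Quantile normalization of the table brought the let-7a change to 0. Without both differing columns, with 1 column left per Stylo group, the changes of let-7a and let-7f were 0.13 and 0.07, and that of let-7e was −0.71.

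MiR-155 drives B-cell lymphoma in mice and is induced in activated lymphocytes and macrophages. It was measured in Stylo parent and in no Stylo CSC sample in all 3 value sets. In the value table it was detected in both Stylo parent columns, at −2.75 and −2.71, and in neither Stylo CSC column. Since both sorted columns lie at the floor, the change is a bound: miR-155 was at least 2.32-fold lower in Stylo CSC (fitted −2.18 ± 0.05, adjusted p = 1.45e-05). Values at a common floor show no spread, so this error and p are too small. Among the scanner arrays the parent read miR-155 at −2.54, well above background, and 0 of 2 Stylo CSC arrays did so, at −3.44 and at the floor of −3.61. It was at least 1.62-fold lower there and was the 1 call of that set, in which 7 miRNAs had an unadjusted p below 0.05. On slide 1 it was at least 1.95-fold lower. In both of these sets the single Stylo parent array alone measured miR-155, which entered the tests through that array, so their p-values carry no information on it and are not given. Of 16 alternatives 11 lost the scanner call, no scaling and the removal of any of the 4 Star arrays among them.

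In the haematopoietic marker list, miR-155, miR-223 and miR-486 were the members detected in at least 1 Stylo column. The 8 names of the list match 9 array entries, and their summed table totals were 23.5 and 10.9 in Stylo parent against 0 and 17.3 in Stylo CSC. MiR-223, a myeloid miRNA, was detected in 1 column of each group and had a table change of −0.39 ± 1.05 (adjusted p = 0.991). MiR-486, of erythroid and muscle cells, was detected in Stylo CSC replicate 2 and in no other Stylo column. The remaining list members, among them miR-142, miR-150 and miR-451, which mark blood lineages, were undetected in every Stylo column. The part of blood cells in the miR-155 result was not tested beyond these values, and in a bulk sample fewer cells of a type and less RNA per cell cannot be told apart.

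MiR-210, the miRNA most regularly induced by hypoxia through HIF, moved the other way. It was undetected in both Stylo parent columns and stood at −3.12 and −2.98 in Stylo CSC, at least 2.21-fold higher (fitted 1.86 ± 0.18, adjusted p = 0.00343). As for miR-155, a group wholly at the floor shows no spread, so the error and p of miR-210 are too small. On slide 1 it was not well above background in Stylo parent and stood at −2.13 in Stylo CSC, at least 1.36-fold higher (adjusted p = 0.0141). On the slide 2 array miR-210 was not well above background, and the scanner change was 0.39 ± 0.36 (adjusted p = 0.604). MiR-99b, a neighbour of let-7e whose family targets the mTOR pathway, was likewise undetected in both parent columns and stood at −3.06 and −3.51 in Stylo CSC, at least 1.88-fold higher (adjusted p = 0.0191, too small for the same reason). On slide 1 the value of miR-99b did not pass (adjusted p = 0.147), and 10 of 16 alternatives lost its table call. MiR-191, upregulated in several carcinomas, was detected in both Stylo CSC columns at −2.59 and in 1 of 2 Stylo parent columns at −3.66. Its fitted rise of 1.70 ± 0.41 (adjusted p = 0.0321) rests on the parent column at the floor. Without both differing columns, with 1 column left per Stylo group, the rise was 0.79.

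MiR-34a, a p53 target that restrains CD44 and stemness in human tumour models, was higher in Stylo CSC. It stood at −1.44 and −1.78 in Stylo parent and at −1.17 and −1.02 in Stylo CSC, a rise of 0.51 ± 0.13 (adjusted p = 0.04). Of 17 alternatives 12 lost that call, and the change was 0.13 without both differing columns. MiR-378, encoded within PPARGC1B, a regulator of mitochondrial metabolism, went from −2.89 and −2.86 to −2.45 and −2.06, a rise of 0.62 ± 0.15 (adjusted p = 0.0321). For miR-378, 10 of 17 alternatives lost the call. Both miR-34a and miR-378 lay above the parent on slide 1, at 0.23 ± 0.10 and 0.31 ± 0.08, without passing (adjusted p = 0.147 and 0.0806). Both lay below it on the slide 2 array, where miR-34a read −2.81 against −1.35 in the parent and miR-378 −2.60 against −1.66.

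MiR-92a also fell, and is cut from polycistronic clusters that promote proliferation. It stood at −1.74 and −2.31 in Stylo parent, at −3.45 in Stylo CSC replicate 2 and at the floor in replicate 1. The fitted change of −2.15 ± 0.51 (adjusted p = 0.0321) rests in part on the column at the floor. That common floor lies below miR-221, which the same column detected at −3.72. Of 16 alternatives 8 lost the table call of miR-92a. On slide 1 it was measured on both arrays and fell by 1.56 ± 0.15 (adjusted p = 0.0129), but the slide 2 array read −1.22, above the parent at −1.66. Of 14 members of these clusters and their paralogs, 5 were tested in the table and miR-92a was the 1 called, beside 30.4% over all tested. MiR-15b, which targets BCL2 and cell cycle genes, went from −1.01 and −1.11 to −1.63 and −1.59, a change of −0.55 ± 0.06 (adjusted p = 0.00551). On slide 1 miR-15b fell by 0.78 ± 0.09 (adjusted p = 0.0156), and on the scanner arrays both sorted values, −1.11 and −1.74, lay below the parent at −0.77 without passing (adjusted p = 0.296). Its cluster partner miR-16 was measured in 1 table column per group (−0.12 ± 0.62, adjusted p = 1) and was at least 1.34-fold lower on slide 1 (adjusted p = 0.0125).

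MiR-193a, which targets MCL1 in human cells, went from −2.34 and −2.25 to −3.19 and −2.84, a change of −0.72 ± 0.13 (adjusted p = 0.0161). MiR-125b, which targets ERBB2 and p53 pathway genes, went from 0.83 and 0.90 to 0.53 and 0.45, a change of −0.37 ± 0.07 (adjusted p = 0.0166). Slide 1 gave changes of −0.68 ± 0.09 (adjusted p = 0.0242) and −0.57 ± 0.09 (adjusted p = 0.0346) for the same miRNAs. For the scanner arrays, miR-125b read 0.91 in the parent and −0.42 and 0.15 in Stylo CSC, below the parent on both. MiR-193a read −2.20 in the parent and −3.06 in Stylo CSC replicate 2. On the slide 2 array miR-193a was not well above background and was set to the floor of −3.61. Neither miR-125b nor miR-193a passed in that set (adjusted p = 0.256 and 0.252). MiR-494, from the large imprinted DLK1-DIO3 cluster, fell by the smallest amount, −0.30 ± 0.06 (adjusted p = 0.0174), from 0.34 and 0.27 to 0.00 and 0.01. Both Stylo CSC values of miR-494 lie next to the scaling percentile. Their closeness, and part of this error and p, is therefore set by the scaling. The slide 2 array read miR-494 at 2.54, over 2 log2 units above the parent at 0.43, while Stylo CSC replicate 2 read −0.28.

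Among 6 miRNAs of the table calls the scanner change had the opposite sign: let-7a, miR-23b, miR-27b, miR-34a, miR-378 and miR-494. In each of the 6, Stylo CSC replicate 2 lay on the same side of the parent array as in the table, and the slide 2 array lay on the other side. By contrast all 17 table calls had the same sign on slide 1, and 9 passed in both sets, which is 52.9% of each list. These 9 were miR-23b and miR-210, higher, and miR-155 (on slide 1 through 1 array, as above), miR-92a, miR-15b, miR-193a, let-7e, miR-125b and miR-494, lower. Slide 1 and the table share Stylo CSC replicate 2 and Stylo parent replicate 1, so this overlap is not a separate measurement.

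**Figure D2:**
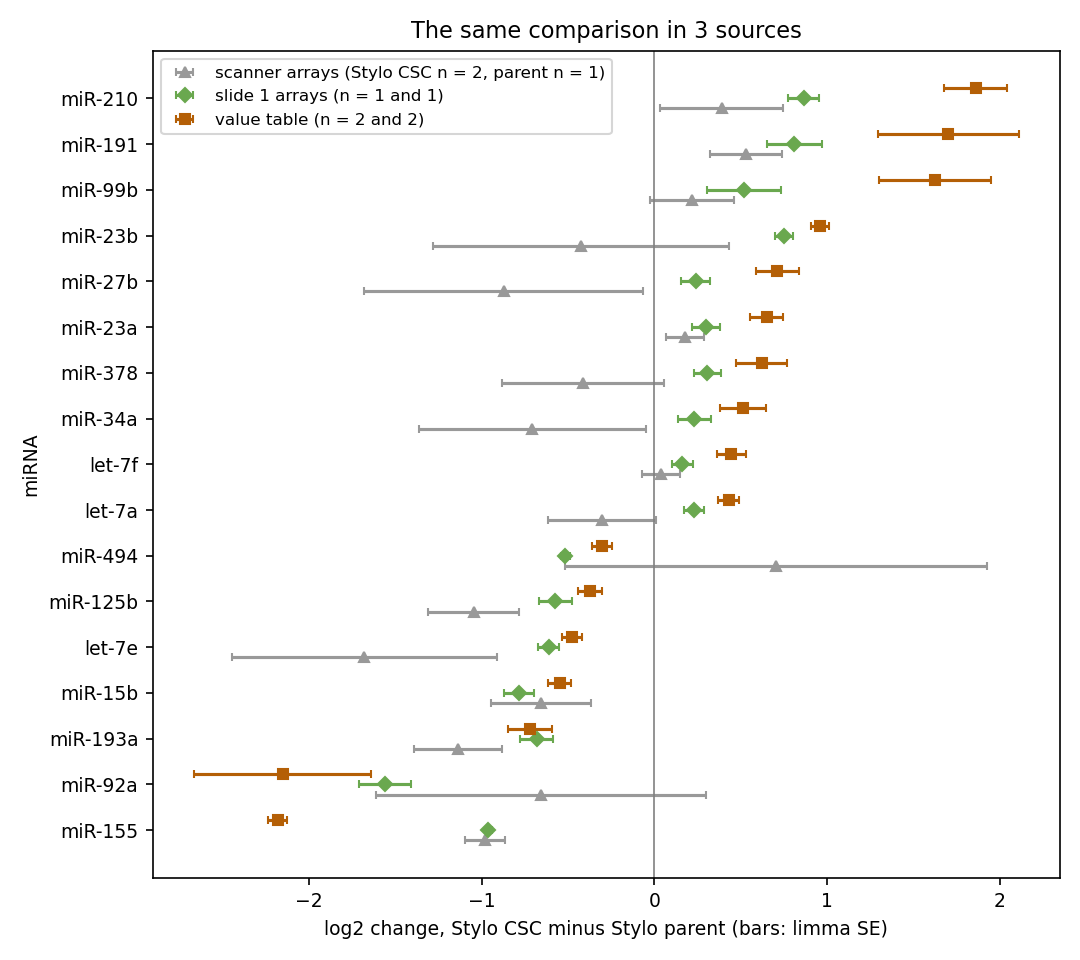
The log2 change from Stylo parent to Stylo CSC is shown for the 17 miRNAs called in the value table, in all 3 value sets, with limma's standard error as bars. Slide 1 and value table points lie on the same side of 0 in every row, and 6 of the scanner points lie on the other side with wide bars.

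The value table allowed 2 column pairs with no shared column to be set against each other: Stylo CSC replicate 2 minus Stylo parent replicate 1, whose values the scanner files also hold, and Stylo CSC replicate 1 minus Stylo parent replicate 2, whose values stand in the table alone. Over the 22 miRNAs measured in all 4 columns, 16 had the same sign in both pairs. Pearson's r was 0.434 and Spearman's rho 0.671, as a description of miRNAs that share columns and scaling. All 12 called miRNAs among them had the same sign, which the call itself favours, as did 4 of the 10 that were not called. MiR-23b changed by 0.94 and 0.98, let-7a by 0.42 and 0.44 and miR-15b by −0.57 and −0.52 in these pairs. For miR-23b the likeness of the pairs is partly set by the scaling, which holds its parent values close to the scaling percentile. MiR-193a differed more, at −0.51 and −0.94. MiR-342, encoded within EVL, gave 2.44 in one pair and −0.22 in the other, and its table change of 1.11 ± 0.79 did not pass (adjusted p = 0.463). In the scanner set miR-342 was well above background on both Stylo CSC arrays and not on the parent, at least 2.11-fold higher, also without passing (adjusted p = 0.295).

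**Figure D3:**
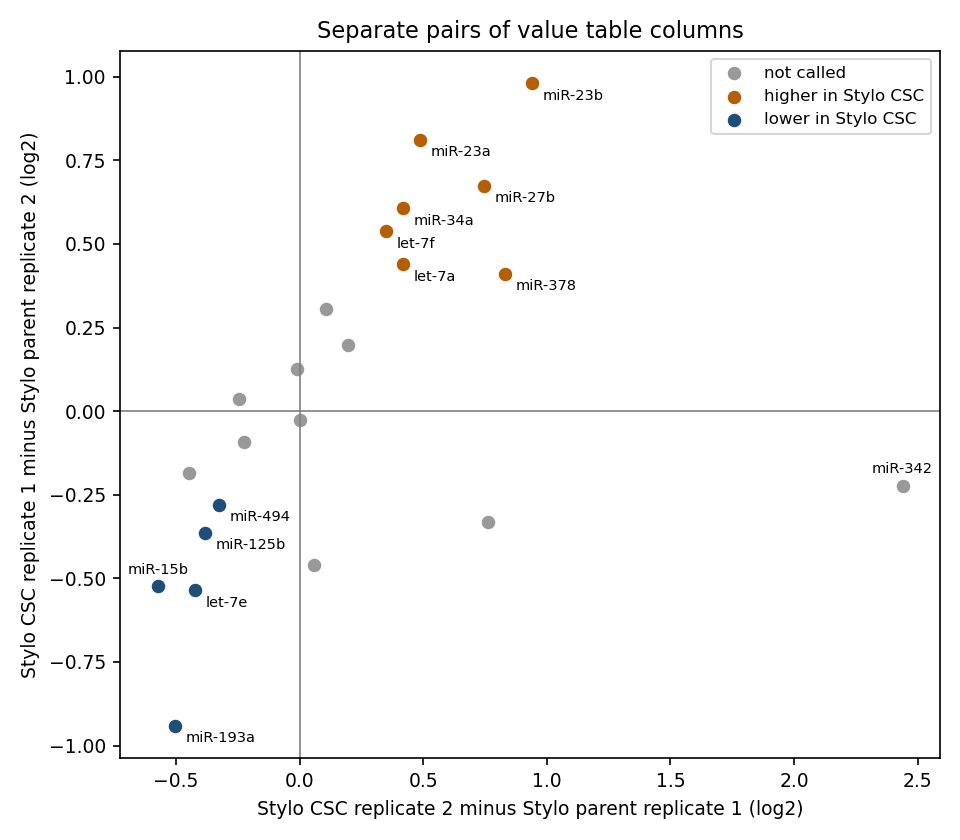
Each point is 1 of the 22 miRNAs detected in all 4 Stylo columns of the value table, placed by the log2 change in 1 column pair on each axis. The called miRNAs lie at the upper right and lower left, and miR-342 lies far to the right at 2.44 against −0.22.

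Other miRNAs with known roles in breast tumours showed no called change in the value table. MiR-21, the most widely reported oncogenic miRNA, stood at −1.62 and −1.72 in Stylo parent and at −1.60 and −1.64 in Stylo CSC, a difference of 0.06 ± 0.07 (adjusted p = 0.782). It differed by −0.21 on slide 1 and −0.07 on the scanner arrays. MiR-221, which targets the cell cycle inhibitor p27, differed by −0.10 ± 0.21 (adjusted p = 0.972). MiR-22, reported to promote stemness through TET enzymes in mouse models, differed by −0.32 ± 0.13 (adjusted p = 0.152), and miR-29a, which targets collagens, by 0.21 ± 0.07 (adjusted p = 0.119). On slide 1 and the scanner arrays miR-221 differed by −0.51 and −0.72, miR-22 by −0.58 and −1.19 and miR-29a by 0.02 and 0.49, and none of these passed. Of the 7 oncogenic names 5 were tested, with 0 higher and 2 lower (miR-155 and miR-92a), beside 17.9% and 12.5% over all tested. Of the 16 names tied to breast stem cells 9 were tested, with 2 higher (let-7a and miR-34a) and 1 lower (miR-155), a share of calls close to the 30.4% over all tested.

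The 10 epithelial markers, which include the miR-200 family, miR-205 and the miR-183 cluster, were undetected in all 4 Stylo columns, before and after sorting. The 7 muscle, 3 liver and 1 endothelial markers were also undetected in Stylo. Among 8 mesenchymal markers miR-140 was detected, in 1 column of each group. Among 9 neural markers miR-138a was detected in Stylo CSC replicate 2 alone. On slide 1 the same array alone measured it, at −1.72 and at least 1.8-fold above the parent. It entered that test only through this array, all others lying at the floor, so its p carries no information and is not given, and it was not tested in the table. No member of the miR-181, miR-26 or miR-130 families was detected in any Stylo column.

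The remaining slide 1 calls rest on 1 array per group. MiR-8892 fell by 0.50 ± 0.04 (adjusted p = 0.0127). MiR-223, at least 1.95-fold lower, and miR-8799g, at least 1.02-fold higher, were each measured on 1 Stylo array and on no other array of the slide. They entered the test through that array alone, so no p is given for them. MiR-874 and miR-188 passed although neither Stylo array read them well above background, so no fold is given for them. Where a miRNA had several probes, the probes spoke alike: of 30 miRNAs with a probe measured on both Stylo arrays of slide 1, 10 had at least 2 such probes, and in 10 of 10 these changed in the same direction. Their changes lay within a median of 0.14 log2 units of each other, and the widest gap was 0.52, for miR-197.

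Positions were read from RefSeq's dog annotation UU_Cfam_GSD_1.0, a different build from the array's, so only neighbours are given. Of 58 tested names 57 matched. MiR-23b and miR-27b lie within 10 kb of each other, inside the annotated spans of both C1H9orf3 and FANCC, and both miRNAs rose in the table. Let-7e and miR-99b also lie within 10 kb, and they moved in opposite directions, let-7e lower and miR-99b higher, in the table. MiR-15b and a copy of miR-16 lie within SMC4, a chromosome condensation gene.

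The change on sorting was then compared with that in the resistant line, as the Stylo change minus the Star change. By limma, 19 of 56 miRNAs in the value table differed between the lines (percent called 33.9), 9 with a higher (16.1%) and 10 with a lower change in Stylo (17.9%), and 11 of the 19 were measured in all 8 columns. Among the 10 lower, miR-31 and miR-151 were detected in Star CSC only and entered the test through that group. Their p-values carry no information. Without rescaling the split was 5 higher and 12 lower. On the scanner arrays 0 of 46 differed (limma; percent called 0), with 8 at an unadjusted p below 0.05 and a smallest adjusted p of 0.0897. All 3 measured miRNAs of the miR-23/27/24 clusters were on the list. MiR-23b stood at 0.86 and 0.83 in Star parent and at 0.51 and 0.52 in Star CSC, so its difference between lines was 1.29 ± 0.07 (adjusted p = 0.000385). The limit that the scaling puts on its Stylo parent values, given above, holds here too. In the table Stylo parent was the lowest and Stylo CSC the highest of the 4 groups for this miRNA. The other sets ranked the groups otherwise. On slide 1 Star parent had a mean of 1.52 against 1.43 in Stylo CSC. On the scanner arrays these means were 0.76 and −0.26. The difference between lines in the table was 1.26 ± 0.18 for miR-27b (adjusted p = 0.00698) and 0.79 ± 0.14 for miR-23a (adjusted p = 0.0103).

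MiR-15b and let-7e took the reverse course. MiR-15b rose from −2.09 and −2.15 to −1.20 and −1.17 in Star and fell in Stylo, a difference of −1.48 ± 0.09 (adjusted p = 0.000385). Let-7e gave −0.99 ± 0.08 (adjusted p = 0.000931), from 0.57 and 0.54 in Star parent to 1.07 and 1.07 in Star CSC. MiR-22 and miR-29a, whose Stylo changes did not pass, differed between lines by 1.23 ± 0.18 (adjusted p = 0.00698) and 1.20 ± 0.10 (adjusted p = 0.001). MiR-125b was lower after sorting in both lines, by −0.37 in Stylo and −0.82 in Star, and the difference of 0.44 ± 0.10 passed (adjusted p = 0.0217). Of 11 alternatives 5 lost that call. The Star CSC values of miR-125b, 0.03 and 0.00, lie next to the scaling percentile, so the scaling partly sets them. For 6 of the 17 Stylo calls the difference between lines did not pass, and the 95% intervals bound it. The interval ran from −0.35 to 0.11 for let-7a, from −0.41 to 0.20 for let-7f and from −0.16 to 0.27 for miR-494. It was wider for miR-34a (−0.47 to 0.50), miR-193a (−0.49 to 0.45) and miR-378 (−0.28 to 0.80). The limit that the scaling puts on miR-494, given above, holds for its interval too. Its Star parent values, 0.05 and 0.07, also lie next to the scaling percentile.

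**Figure D4:**
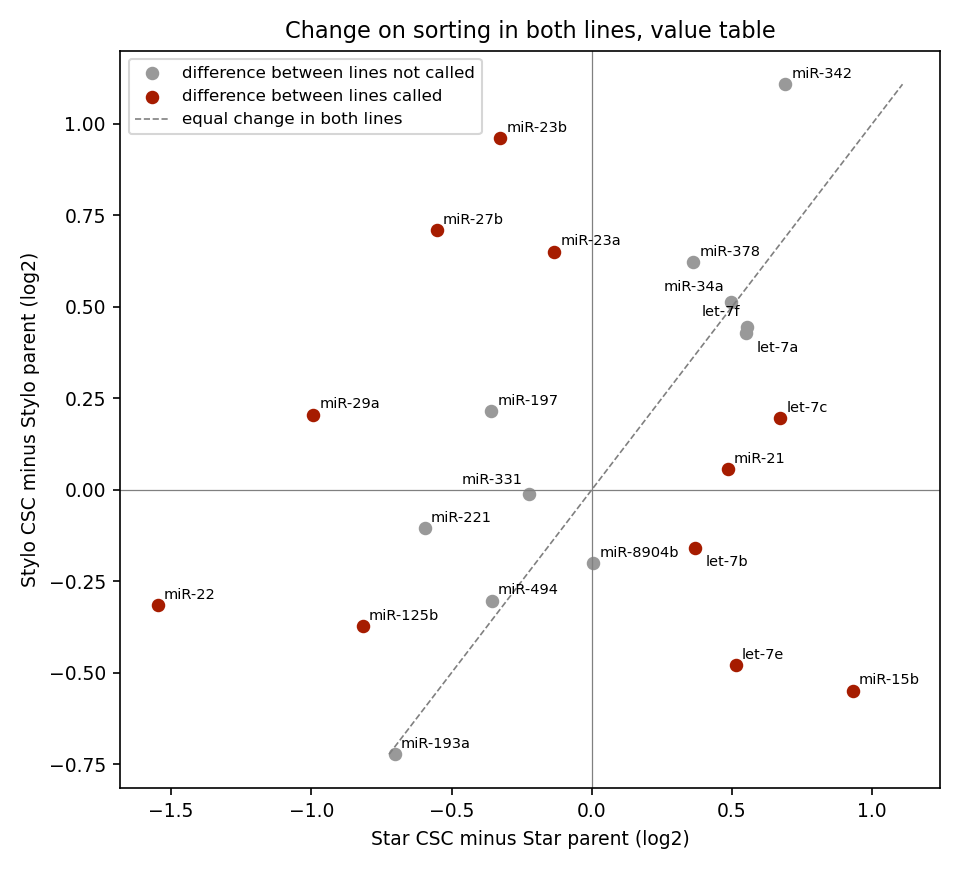
Points are the 22 miRNAs measured in all 8 columns of the value table, with the log2 change on sorting in Star on the horizontal axis and in Stylo on the vertical axis. The 11 red points differ between the lines by limma, and miR-23b, miR-27b and miR-23a lie above the dashed line of equal change while miR-15b and let-7e lie below it.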

How the data were processed

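The members and lists were chosen with earlier results of these data known. Each scanner file holds spot intensity values from Agilent Feature Extraction 11.5.1.1, background-subtracted per the file headers. The deposited value table holds log2 totals per miRNA, centred per miRNA and shifted per column, and the shifts were undone by matching to the scanner totals (tolerance 0.01). Its column medians were −0.94, −0.63, 0.01, −0.12, 6.15, −0.01, 0.29 and 6.15 (Star CSC, Star parent, Stylo CSC, Stylo parent, replicates 1 and 2). For the 2 columns in which no detected entry follows a scanner total, the shift was inferred from the undetected total of 0.1 (log2 −3.32). The other 6 columns settled the direction; why the columns were shifted is unknown.

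Spots of a probe were averaged without control spots and outlier flags (3.84% to 9.15%; 0 saturated), and probes of a miRNA were summed. Each array was scaled to its 75th percentile over probes measured on every array (22, or 39 on slide 1), floored (log2 −3.61, or −2.99 on slide 1) and logged. A probe was measured where over 50% of its spots were well above background. The table was scaled over the miRNAs detected in every column, detection standing in for the background flag. Tested were miRNAs measured throughout at least 1 group, with limma 3.58.1 in R 4.3.3 as 4 group means (3, 2 and 4 residual degrees of freedom for scanner, slide 1 and table), two-sided, Benjamini-Hochberg adjusted at 0.05, and tested on simulated data. With groups of 2, an exact permutation test could not reach that threshold. Where a group had no measured array, "at least N-fold" sets the brighter mean against the higher of the dim signal and the lowest measured signal. The few arrays limit the precision. Normexp used the median signal.

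Described in full were miRNAs called on the scanner arrays, called alike on slide 1 and in the table, opposite in sign between sources or measured in 1 Stylo group only, plus up to 4 members of each list. Other calls were added after their values were seen. Alternatives covered scaling, background, floor, filter, slide or replicate block and each sample left out. No miRNA sequences are shown.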

Additional observations from a re-analysis of the deposited data

Results flagged for a closer look

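By limma, 19 miRNAs in the value table changed differently on sorting in Stylo and in Star (test of the difference, adjusted p below 0.05, n = 2 in each of 4 groups). The differences are given as the Stylo change minus the Star change, on the log2 scale. Higher in Stylo, and measured in all 8 columns, were miR-23b (1.287), miR-27b (1.262), miR-22 (1.232), miR-29a (1.198), miR-23a (0.7853) and miR-125b (0.4428). Lower in Stylo, and measured in all 8 columns, were miR-15b (−1.48), let-7e (−0.9912), let-7b (−0.5255), let-7c (−0.4758) and miR-21 (−0.4279). In 7 of these 11 the changes had opposite signs in the lines.

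The other 8 had at least 1 column at the floor, and where a whole group lies there the error is too small. Higher in Stylo were miR-191 (2.055), miR-99b (1.672) and miR-210 (1.562), and lower were miR-92a (−3.731) and miR-155 (−1.742). MiR-31 (−1.536), miR-151 (−0.6163) and miR-107 (−0.5236) were undetected in all 4 Stylo columns, so their differences come from the Star columns alone. MiR-31 and miR-151 were detected in Star CSC only and entered the test through that group, so their p-values carry no information. Of the 4 Stylo columns behind these values, 2 differ from their scanner files, and the slide 1 arrays without them gave 20 differences (10 higher, 10 lower).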

How the results depend on the processing

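Of the 17 named table calls, refitted 284 times, 207 refits kept the call, 77 lost it and 0 reversed. The 19 differences between lines kept it in 173 refits and lost it in 35, and the 17 slide 1 calls kept it in 95 of 161. Of the latter, miR-874 (−0.0447) and miR-8799g (−0.00407) turned sign with normexp, and the cause was not tested.

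On the scanner arrays the count of 1 went to 0 with scaling over all probes, quantile normalization, no scaling, normexp, software totals, measurement on every array, Stylo groups alone and the replicate block. It went to 5 with a doubled floor (0 higher, 5 lower), 21 with the slide as a block (3 and 18), which gives the slide 2 array no weight, and 4 with an unadjusted p and a fold of 2. Leaving out 1 array gave 0 to 32, with 32 without Stylo CSC replicate 2 and 17 without replicate 1. The median over all miRNAs was −0.25, −0.75 with scaling over all probes and 0 after quantile normalization.

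On slide 1 the 17 calls went to 5 without scaling (3 higher, 2 lower), 29 with normexp (5 and 24), 3 with the fold rule and 11 with a doubled floor, chosen after seeing the data. Quantile normalization gave 13 (8 and 5). Leaving out 1 array gave 8 to 9.

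In the table the 17 calls went to 0 with the table as deposited, 10 after quantile normalization and 5 with the fold rule. The refit without both differing columns, chosen after seeing the data, leaves 1 column per Stylo group, so no count is given for it. Leaving out 1 column gave 11 to 22, the lowest without Stylo parent replicate 2. Differences between lines numbered 15 to 26 with 1 column left out. On the scanner arrays they numbered 3 without scaling and 30 with the slide as a block.

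The main fits did not pair samples by replicate number. Differences between replicates correlated at 0.766 between Stylo CSC and parent and −0.767 between Star CSC and parent. They also correlated at −0.797 between Stylo CSC and Star CSC and at 0.775 between Stylo parent and Star parent. Correlations as large arise between the lines as within them, so these values neither show nor exclude pairing. With the replicate block the table gave 15 calls (9 and 6) and 18 differences between lines, and the scanner arrays 0 of each. The signal over background limits what can be seen, as 4.19% to 8.78% of the spots were well above it.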
